A study of Populus trichocarpa
Populus deltoides with 74 samples.

Results

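Floral buds were set against lateral vegetative buds of male wild-type poplars aged 6 years, labelled with both Populus trichocarpa and Populus deltoides. The comparison was chosen by source label alone and takes 8 of the 74 arrays of the series. These were 4 arrays of male floral buds and 4 of male vegetative buds, from 2 RNA isolations (a and b) per bud type with 2 wells each. The remaining arrays cover wild-type trees aged 1, 2, 5 and 6 years, with shoot tips labelled female and with buds whose sex is not stated, among them floral and vegetative buds of age 6. Total RNA labelled with Cy5 was hybridised to 217 oligos in wells of a 96-well plate. The sources name no clone, tree number or sampling date for the male buds. The isolations are called biological replicates in the design text, but whether they came from separate trees is not given, so the spread between them may be technical.

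In flowering plants a shoot meristem turns into a floral meristem through LEAFY and APETALA1, and floral organs are then specified by further transcription factors. DEFICIENS-type genes act in petals and stamens, and AGAMOUS-type genes in stamens and carpels. Poplars are dioecious, so a tree bears either male or female catkins, and these form inside buds well before they open. The array holds homologs of these genes together with genes of light, gibberellin and auxin pathways.

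Values are quantile-normalized log2 intensities, with the 2 wells averaged per isolation. Differences are male floral minus male vegetative buds, with the standard error (SE) of a limma model over all 37 isolations of the series and n = 2 isolations per bud type throughout. A call is an adjusted p under 0.05 over all 217 oligos. Array medians as deposited were 8.58 to 8.65 in male floral and 8.33 to 8.48 in male vegetative buds. Wells of an isolation correlated at 0.966 to 0.980. The isolations correlated at 0.989 within floral buds and at 0.976 within vegetative buds, against 0.799 to 0.852 between bud types. No label or header names a batch. When isolations were clustered into 5 by the differences between their paired wells, after seeing the data, all 4 isolations fell into the same cluster. Bulk RNA cannot separate fewer cells of a type from less RNA per cell.

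All 3 measured genes of floral organ identity rose in male floral buds, where 16 of all 217 oligos (7.37%) did. PTAG1, an AGAMOUS homolog, had 11.23 and 11.05 in the floral isolations, against 5.09 and 4.49 in the vegetative isolations. Its difference was 6.35 ± 0.58 (adjusted p = 1.1e-08). PTAG2, the other AGAMOUS homolog, had 11.33 and 11.41 in floral buds and 6.21 and 5.44 in vegetative buds, a difference of 5.54 ± 0.43 (adjusted p = 1.8e-09). Read as log2 values, these are 81.5-fold and 46.6-fold higher intensities. PTD, the DEFICIENS homolog, had 8.36 and 8.88 in floral buds and 5.98 and 5.85 in vegetative buds, a difference of 2.71 ± 0.43 (adjusted p = 3.6e-05). For each of the 3 genes the lower floral isolation lay above the higher vegetative one by at least 2.38. Isolations of the bud types did not overlap, in either direction, for 65.4% of all oligos. The wells of PTD were far apart, at 6.84 and 9.88 in floral isolation a and 7.40 and 10.36 in floral isolation b, against 5.54 and 6.41 in vegetative isolation a and 6.95 and 4.75 in vegetative isolation b. The lowest floral well of PTD thus lay below the highest vegetative well, whereas the wells of PTAG1 and PTAG2 did not overlap between bud types. The median difference of the list was 5.54, and that of all oligos was -0.08.

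The 3 floral meristem identity genes also rose, with a median difference of 3.72. PTAP1-2A, an APETALA1 homolog, was at 14.26 in both floral isolations, against 9.29 in vegetative isolation a and 5.83 in vegetative isolation b. The difference was 6.70 ± 0.73 (adjusted p = 2.1e-07). PTAP1-2A gave the highest deposited value on each of the 4 floral arrays, at 13.67, 13.77, 13.66 and 13.74, and scaling set all 4 to one top value. Its size also depended on the vegetative isolation, at 8.42 without isolation a and 4.97 without isolation b of the vegetative buds. It ranked 1 among the rises of all oligos with both vegetative isolations and 5 without isolation b. Its wells were close within vegetative isolation a, at 9.14 and 9.14 as deposited, and further apart in isolation b, at 5.53 and 6.22. PTAP1-1B, the other APETALA1 homolog, had 11.66 and 11.45 in floral buds and 8.10 and 7.57 in vegetative buds, a difference of 3.72 ± 0.60 (adjusted p = 4.5e-05). PTLF, the LEAFY homolog, had 10.84 and 10.63 in floral buds and 9.54 and 9.16 in vegetative buds. It rose by 1.38 ± 0.23 (adjusted p = 7.4e-05), the smallest rise of these 6 genes.

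**Figure D1:**
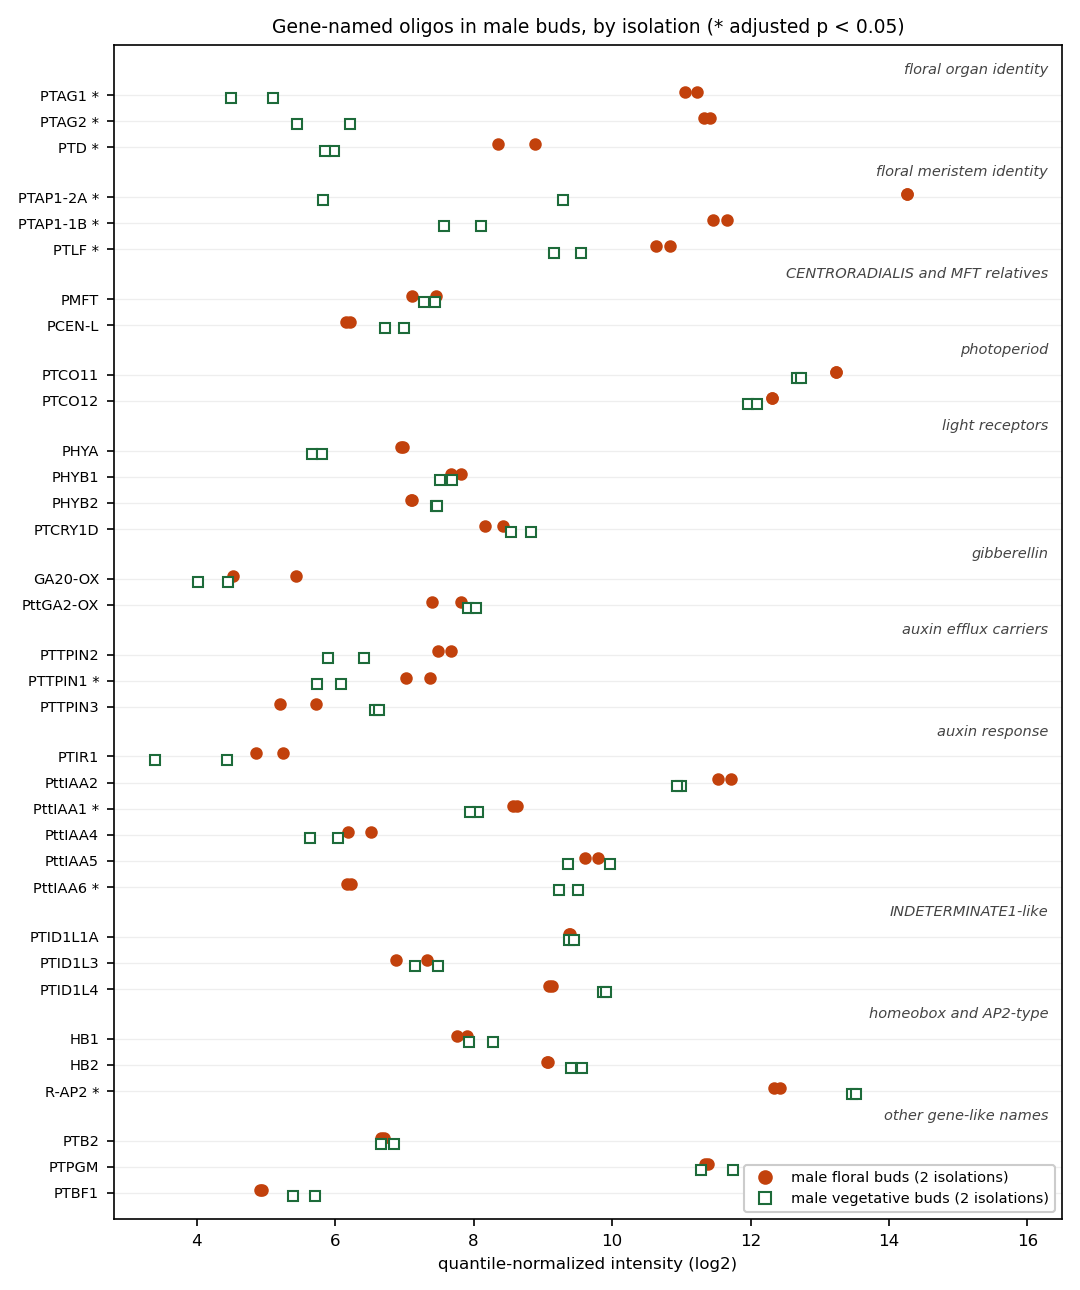
Quantile-normalized log2 intensity (x axis) of the 34 gene-named oligos (rows, grouped by role) in male floral buds (filled circles) and male vegetative buds (open squares), 1 symbol per isolation; an asterisk marks a call. The 6 flower identity genes at the top have both circles right of both squares, while PttIAA6 and R-AP2 have both circles left of them. Circles and squares do not overlap for 27 of the 34 gene-named oligos, called or not, and the bud types did not overlap for 65.4% of all oligos.

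These 6 genes were also averaged as markers of floral buds. All 6 were called above, and the list was chosen with earlier results of these data known. Their contrast between the male bud types is thus no separate check of the labels. Their mean level was 11.28 and 11.28 in the male floral isolations, against 7.37 and 6.39 in the male vegetative isolations. Vegetative buds of ages 1, 2 and 5, of unstated sex, gave 5.92 to 6.23 over 6 isolations, and shoot tips 5.40 to 6.25 over 23. Vegetative buds of age 6 and unstated sex gave 7.53 and 7.73, above both male vegetative isolations. On this mean the vegetative isolations of age 6 thus lay above every younger vegetative bud and every shoot tip, in both tree types. Of the 6 markers, 5 were higher in male vegetative isolation a than in isolation b, both scaled and as deposited. PTD differed between them by 0.125 after scaling and by -0.055 as deposited. Among these 6 markers, the excess of the male vegetative buds over younger buds was in the meristem identity genes. Both male vegetative isolations exceeded all 6 younger vegetative isolations for PTAP1-2A (3.84 to 5.02 there), PTAP1-1B (5.01 to 7.27) and PTLF (8.32 to 9.10). For PTAG1, PTAG2 and PTD the younger buds ranged over 4.35 to 5.18, 5.26 to 6.23 and 5.44 to 6.83, and both male vegetative isolations lay inside these ranges. Vegetative buds of age 6 and unstated sex lay above them for PTAG1 (5.98 and 5.96) and PTAG2 (6.39 and 6.49), but not for PTD. Outside the markers, R-AP2, PTID1L4 and the clone V059D02 also had both male vegetative isolations above all 6 younger ones. The share of all oligos that did so was not counted. All 6 younger isolations fell into another cluster of well differences, and so did isolation a of the age 6 vegetative buds of unstated sex, whose marker mean was 7.53. The part of floral tissue in these levels was not tested.

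PCEN-L and PMFT belong to the family of CENTRORADIALIS, which keeps inflorescence shoots from becoming flowers in Antirrhinum, and of MOTHER OF FT AND TFL1. Limma called 0 of the 2, with 1 at an unadjusted p under 0.05. Over all 217 oligos 19.8% were called in either direction and 31.8% had an unadjusted p under 0.05, and the counts of the smaller lists that follow stand against these shares. PCEN-L had 6.15 and 6.21 in floral buds and 6.996 and 6.71 in vegetative buds, a difference of -0.67 ± 0.28 (adjusted p = 0.0941). PMFT differed by -0.08 ± 0.20, with overlapping groups.

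Auxin genes moved in both directions. PttIAA6, one of the Aux/IAA genes, whose proteins repress auxin-responsive transcription, had 6.17 and 6.23 in floral buds, against 9.24 and 9.51 in vegetative buds. It fell by 3.17 ± 0.33 (adjusted p = 1.2e-07). PttIAA1, of the same family, had 8.56 and 8.62 in floral buds and 8.07 and 7.95 in vegetative buds, a rise of 0.59 ± 0.18 (adjusted p = 0.0265). Its call was lost on leaving out any 1 of the 4 isolations, with an adjusted p of up to 0.160. Of the 6 auxin response genes 1 rose, 1 fell and 4 were not called. Among those, PttIAA2 differed by 0.66 ± 0.27 and PTIR1, TIR1-like by name, by 1.13 ± 0.53 (adjusted p = 0.0968 and 0.139). PTTPIN1, a PIN-type carrier that exports auxin from cells, had 7.37 and 7.02 in floral buds and 5.73 and 6.09 in vegetative buds. It rose by 1.28 ± 0.38 (adjusted p = 0.0199), and was not called without isolation a of the floral buds (adjusted p = 0.161) or isolation a of the vegetative buds (adjusted p = 0.133). PTTPIN2 had 7.48 and 7.67 in floral buds and 6.41 and 5.89 in vegetative buds (1.42 ± 0.60, adjusted p = 0.0998). PTTPIN3 had 5.20 and 5.72 in floral buds and 6.57 and 6.63 in vegetative buds (-1.14 ± 0.46, adjusted p = 0.0836). In other settings PTTPIN2 passed in 6 and PTTPIN3 in 4. So 1 of 3 efflux carriers was called. All 3 had bud types that did not overlap, as did 65.4% of all oligos, and an unadjusted p under 0.05, as did 31.8%.

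No light or photoperiod gene passed the test. Limma called 0 of 4 light receptors and 0 of 2 CONSTANS homologs, with 1 of each at an unadjusted p under 0.05 (31.8% of all oligos). The far-red receptor gene PHYA had 6.97 and 6.95 in floral buds and 5.67 and 5.80 in vegetative buds, a difference of 1.22 ± 0.45 (adjusted p = 0.0611). It passed in 6 other settings, among them the values as deposited (1.52, adjusted p = 0.0227). The cryptochrome gene PTCRY1D differed by -0.39 ± 0.24. PHYB1 and PHYB2, the other phytochromes, had differences of 0.15 and -0.36. PTCO11, a homolog of the photoperiod gene CONSTANS, had 13.23 and 13.23 in floral buds and 12.67 and 12.73 in vegetative buds (0.53 ± 0.22, adjusted p = 0.0878, and 0.79 with an adjusted p of 0.0291 as deposited). PTCO12 differed by 0.29 ± 0.24.

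R-AP2, AP2-type by name, fell by 1.11 ± 0.20 (adjusted p = 0.00015), with 12.34 and 12.42 in floral buds and 13.47 and 13.52 in vegetative buds. The homeobox genes HB1 and HB2 differed by -0.28 ± 0.29 and -0.43 ± 0.23 and were not called. Neither gibberellin gene was called by limma, and 0 of the 2 had an unadjusted p under 0.05. GA20-OX, whose enzyme makes precursors of active gibberellin, differed by 0.74 ± 0.57, and PttGA2-OX, whose enzyme inactivates gibberellin, by -0.37 ± 0.37. Of 3 INDETERMINATE1-like genes, named after a maize flowering regulator, 0 were called and 0 had an unadjusted p under 0.05. PTID1L4 had 9.13 and 9.08 in floral buds and 9.87 and 9.91 in vegetative buds (-0.78 ± 0.64, adjusted p = 0.453, and 0.0153 in a fit to the 4 male isolations alone). PTID1L3 differed by -0.21 ± 0.47. The other gene-like names, PTB2, PTBF1 and PTPGM, gave 0 calls and 0 at an unadjusted p under 0.05, with differences of -0.08, -0.63 and -0.15.

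In all, 43 of 217 oligos were called (19.8%), 16 higher (7.37%) and 27 lower (12.4%) in male floral buds. The gene-named oligos gave 10 calls among 34, with 8 higher and 2 lower. Beyond 1 log2 unit 13 oligos were called higher and 17 lower, beyond 2 log2 units 9 higher and 7 lower, and beyond 4 log2 units 6 higher and 0 lower, with the clone B016P21Um just short of that size at -3.998. Scaling moved the split. Without any scaling 23 oligos were called higher and 15 lower, and median centring gave 17 higher and 17 lower. The median oligo was at -0.08, against 0.145 as deposited and -0.06 after median centring. Of the 43 called oligos, 31 were also called in the same direction as deposited and 32 after median centring. Without isolation a of the male floral buds 27 were called, 12 higher and 15 lower. Calls of lower level numbered 16 without isolation b of the male floral buds and 17 when male vegetative isolation b was left out.

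**Figure D2:**
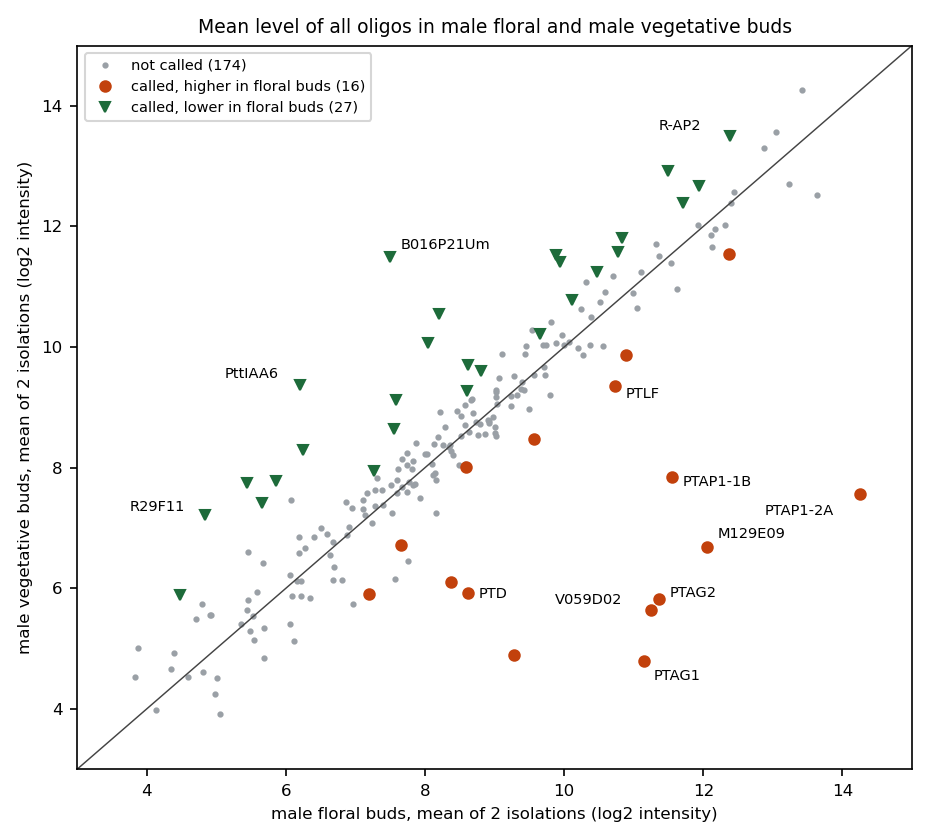
Mean log2 intensity of each of the 217 oligos in male floral buds (x axis) and male vegetative buds (y axis), 2 isolations each; circles are the 16 oligos called higher in floral buds, triangles the 27 called lower, and the line marks equal levels. The 5 oligos furthest below the line are PTAP1-2A, PTAG1, PTAG2 and the clones M129E09 and V059D02.

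The remaining 183 oligos carry only a clone name or accession, which the files do not pair with genes. Of these, 8 were called higher and 25 lower. V059D02 had 11.26 and 11.24 in floral buds and 6.002 and 5.28 in vegetative buds, a difference of 5.61 ± 0.79 (adjusted p = 8.6e-06). M129E09 had 12.004 and 12.10 in floral buds and 7.42 and 5.96 in vegetative buds (5.36 ± 0.44, adjusted p = 2.4e-09). Both thus differed by about as much as the AGAMOUS homologs, and M129E09 was also higher in vegetative isolation a than in isolation b. B016P21Um had 7.48 and 7.52 in floral buds and 11.53 and 11.46 in vegetative buds (-3.998 ± 0.33, adjusted p = 2.4e-09). R29F11 had 4.68 and 4.99 in floral buds and 7.15 and 7.28 in vegetative buds (-2.38 ± 0.42, adjusted p = 0.000123). The other called clones differed by 0.82 to 4.39 where higher (6 oligos) and by -2.34 to -0.57 where lower (23 oligos).

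The same bud types of age 6 from trees of unstated sex share no isolation with the male buds. Both contrasts took the SE of an oligo from the same fit, however, so their calls are not independent. In trees of unstated sex the contrast called 34 oligos (15.7%). The calls in both tree types numbered 26, which is 60.5% of the male calls and 76.5% of those in trees of unstated sex, and all 26 had the same direction. The other 17 male calls had the same sign there in 15 cases. The difference between the 2 floral differences was tested for every oligo, and limma called 0 of 217 (0%), with 19 (8.76%) at an unadjusted p under 0.05 and a smallest adjusted p of 0.241. Among trees of unstated sex, leaving out floral isolation a raised this count to 2, and so did leaving out vegetative isolation b. It was 1 without male vegetative isolation a. Of the named oligos, R-AP2, R29F11 and PTTPIN1 were called in male trees only. PTTPIN1 differed by 0.95 ± 0.38 in trees of unstated sex (adjusted p = 0.102, difference of differences 0.33 ± 0.54, adjusted p = 0.942). R-AP2 differed by -0.29 ± 0.20 in trees of unstated sex, with 12.45 and 12.25 in floral and 12.80 and 12.47 in vegetative buds (difference of differences -0.82 ± 0.28, adjusted p = 0.381). R29F11 differed there by -0.79 ± 0.42 (difference of differences -1.59 ± 0.59, adjusted p = 0.411). PTTPIN3 was called there but not in male trees, at -1.47 ± 0.46 (difference of differences 0.32 ± 0.65, adjusted p = 0.984). The male floral isolations were closer to each other than those of unstated sex for the AGAMOUS homologs. They had 11.33 and 11.41 for PTAG2, against 10.94 and 9.31, and 11.23 and 11.05 for PTAG1, against 11.03 and 9.46. The gap was wider for V059D02, at 11.26 and 11.24 in male trees, against 11.49 and 7.22. PTLF went the other way, at 10.84 and 10.63 in male trees, against 10.57 and 10.70.

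**Figure D3:**
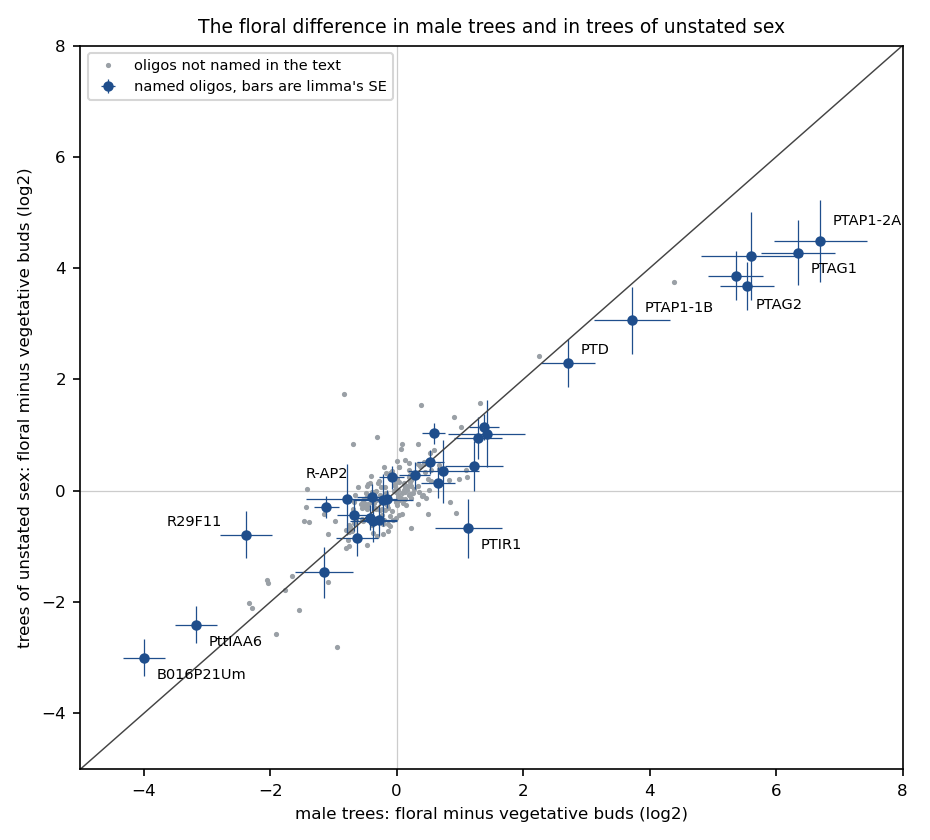
Floral minus vegetative difference on the log2 scale in male trees (x axis) and in trees of unstated sex (y axis) for all 217 oligos; blue points are the named oligos with limma's SE as bars, and the diagonal marks equal differences. PTAG1, PTAG2 and PTAP1-2A lie below the diagonal, but 0 oligos passed the test of the difference.

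Levels in the other organs place these changes in the wider series, as a description. All 23 shoot tip isolations were labelled female and lay in other clusters of well differences than the male buds. Organ, sex label and cluster thus cannot be told apart here. The share of all oligos above or below every tip was not counted. PTAG1, PTAG2, PTD, PTAP1-1B, PTAP1-2A and PTLF were higher in both male floral isolations than in all 23 shoot tip isolations, where PTAG1 and PTAG2 reached at most 6.24 and 6.83. The same held for the uncalled genes PHYA and PTTPIN2 and the clones V059D02 and M129E09, so it was not particular to flower identity genes. PttIAA6 showed the reverse order. Its 6.17 and 6.23 in male floral buds lay below all 23 shoot tips (7.61 to 10.39) and all 6 younger vegetative buds (8.15 to 10.24). B016P21Um did the same, with 10.37 to 12.07 in tips and 11.18 to 11.88 in younger buds. R-AP2 differed from this pattern, since the male vegetative buds stood apart instead. Their 13.47 and 13.52 were above all 23 tips (11.63 to 13.23) and all 6 younger buds (12.02 to 13.07), while the male floral buds lay inside both ranges. PTTPIN3 was lower in both male bud types than in every shoot tip (8.63 to 12.20), and PttIAA1 likewise (9.66 to 11.80 in tips).

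**Figure D4:**
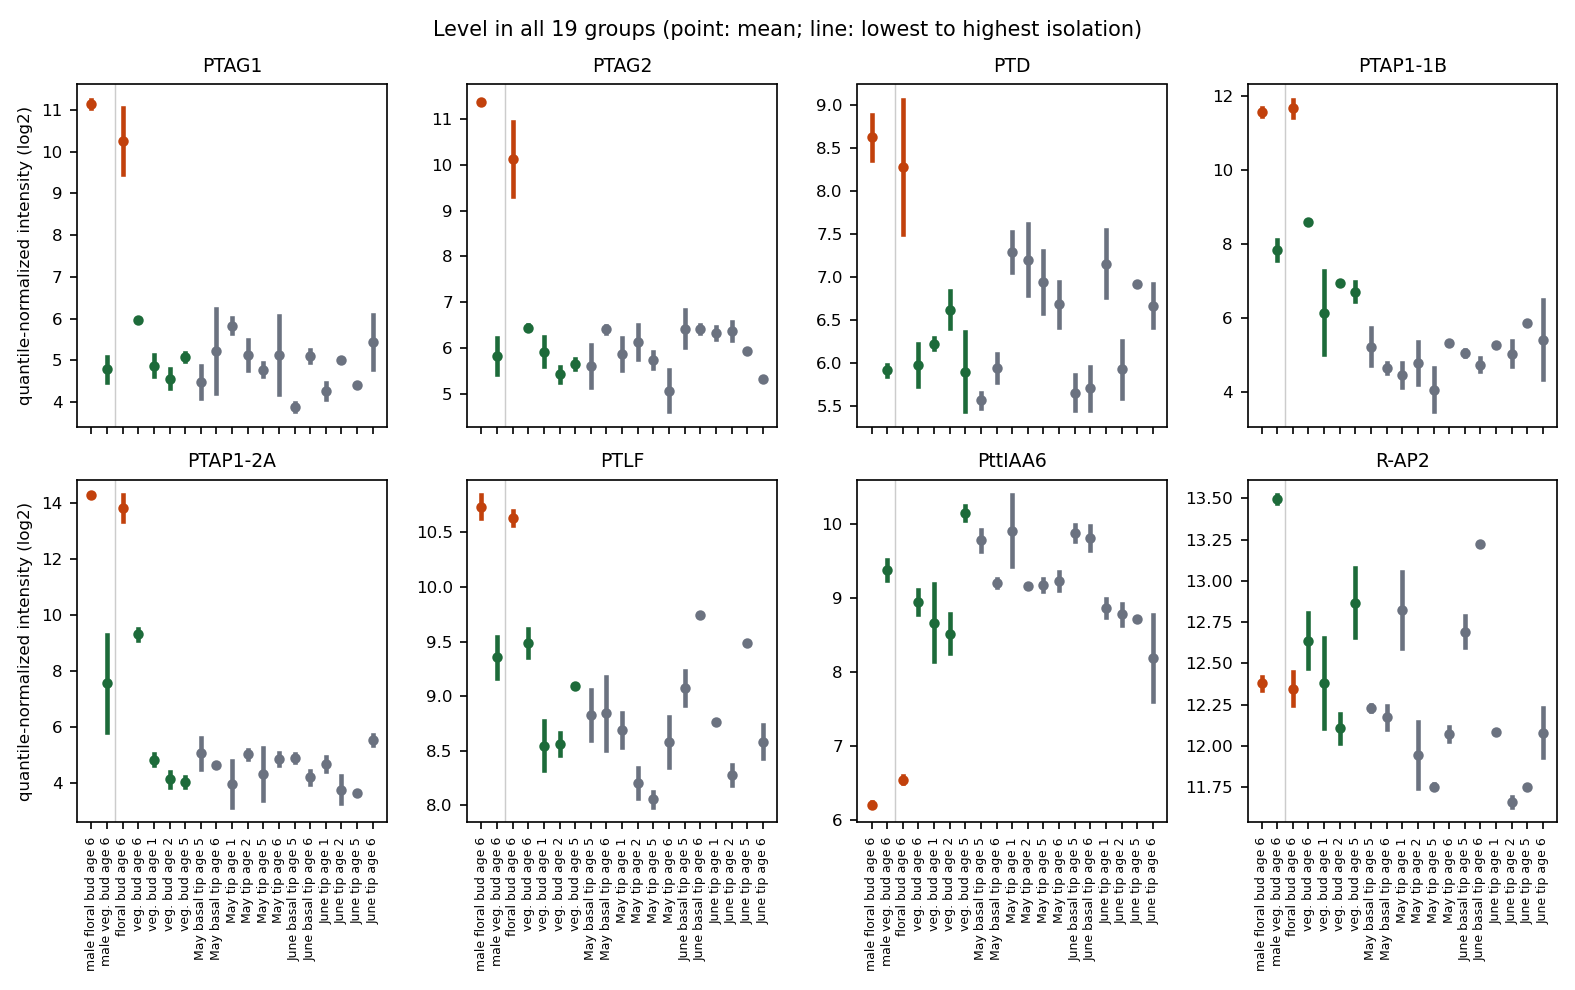
Quantile-normalized log2 intensity (y axis, own range per panel) of 8 genes in the 19 groups of the series (x axis); points are means over isolations and lines run from the lowest to the highest isolation, with floral buds in orange, vegetative buds in green and shoot tips in grey. By group mean the 6 flower identity genes peak in floral buds, PttIAA6 is lowest there, and R-AP2 is highest in male vegetative buds. For PTD the lower floral isolation of unstated sex (7.50) lies below the highest shoot tip isolation (7.61).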

How the data were processed

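The authors deposited 1 value per oligo and array, 217 oligos by 74 arrays, read here as log2 intensities from their range of 1.10 to 16.25. Cy5 labelling and duplicate printing are per the labels and the design text. The log base, any background correction and how duplicate spots were combined are stated in no label or header. Missing values (0.403% on the male arrays) stayed missing. None of the IDs matched the RefSeq gene table (0 of 217), so names are those of the files.

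Array medians spanned 0.735, above the 0.2 allowed, and arrays were quantile-normalized. Wells of an isolation were averaged, and a mean for each of 19 groups was fitted to 37 isolations (18 residual degrees of freedom) with limma 3.58.1 in R 4.3.3, two-sided, with Benjamini-Hochberg adjustment over 217 oligos. The number of isolations limits the precision.

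Members and lists were chosen with earlier results of these data known. Named are all members of both flower identity lists, called members of other lists, up to 2 uncalled ones per list by p, and, of clones, the 2 largest rises and the 2 largest falls. PHYB1, PHYB2 and PTB2 were named beyond this rule.

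Alternatives were deposited values, median centring, fewer samples, a replicate block, wells as arrays, an intensity trend, 2 filters and each isolation left out. Clusters of isolations (5, cut from correlations of well differences, which no label names as batches) and crossed letters were added after seeing the data.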

Additional observations from a re-analysis of the deposited data

How the results depend on the processing

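Calls of male floral against male vegetative buds numbered 27 to 34 without 1 isolation of these buds, with 12 to 15 higher and 15 to 19 lower. Other settings gave 32 to 54 calls in all. Calls of lower level numbered 15 in the values as deposited and 17 after median centring. Calls of higher level numbered 10 among oligos with a value on every array and 7 among oligos above the lower quartile of means, since these filters take oligos out of the test. For the difference between tree types the count was 1 with wells as arrays, and 0 to 2 without 1 isolation. PTAG1, PTAG2, PTD, PTAP1-1B, PTAP1-2A, PTLF, PttIAA6, R-AP2 and the 4 named clones kept direction and call in each setting that tested them, while PTTPIN1 lost its call in 3 and PttIAA1 in 6. None of the 43 called oligos changed sign in the 16 settings compared. Among the uncalled oligos named, PMFT was at 0.185, PTID1L3 at 0.0775 and PTPGM at 0.0125 as deposited. Without 1 isolation PMFT ranged from -0.252 to 0.096, with 0.0055 without isolation a of the vegetative buds, PTID1L3 from -0.437 to 0.0118 and PTPGM from -0.386 to 0.079. The cause of these changes was not tested.

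The letters a and b of the isolations share only a name, and deviations of isolation a correlated at -0.245 between male floral and male vegetative buds. With the isolation letter as a replicate block 42 oligos were called, 16 higher and 26 lower. With the letters crossed between the male bud types, added after seeing the data, 39 were called. With the cluster of well differences as a term 44 were called, and 39 within the cluster of the male buds. The table holds no background values, so signal over background is unknown.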
